A study of Saccharomyces cerevisiae with 12 samples.

Results

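Copper uptake and storage in Saccharomyces cerevisiae was represented by 10 genes, out of 10891 features in the deposited table, which were followed across wild type and 5 strains that each lack an RNA helicase. They were chosen by name for their known role: the metallothioneins CUP1-1 (YHR053C), CUP1-2 (YHR055C) and CRS5 (YOR031W), the copper transporters CTR1 (YPR124W) and CTR3 (YLR411W), the metalloreductases FRE1 (YLR214W) and FRE7 (YOL152W), the transcription factors CUP2 (YGL166W) and MAC1 (YMR021C), and the copper pump CCC2 (YDR270W). The choice was made with earlier results of these data known. All 10 passed the filter on low values. RNA-seq was strand-specific and made from total RNA depleted of rRNA, with 2 biological replicates for each of 6 strains, 12 libraries in all. Wild type (WT) was BY4741, MATa his3Δ1 leu2Δ0 met15Δ0 ura3Δ0. The other strains carried, in that background with ura3 labelled ura3Δ, a kanMX4 replacement of ECM32, SLH1, SKI2, DBP1 or DHH1. All cultures were grown in YPD at 30°C to mid-log phase, with no copper or chelator named in the labels, so every value below belongs to rich medium.

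Yeast takes up copper after cell-surface reductases have reduced it, through the high-affinity permeases Ctr1 and Ctr3. When copper is scarce, the activator Mac1 switches on CTR1, CTR3, FRE1 and FRE7. When copper is plentiful, the activator Cup2 (also called Ace1) binds it and switches on the metallothionein genes, whose small cysteine-rich products hold the metal.

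The deleted helicase genes served as the check of the labels. ECM32 kept 0.319% of its WT density in ecm32-delta, SLH1 0.0283% in slh1-delta, and DHH1 2.17% in dhh1-delta. The libraries labelled ski2-delta had 146% of the WT density of SKI2 but 3.68% of that of DBP1, and those labelled dbp1-delta had 0.110% of SKI2 and 150% of DBP1. These pairs go against their labels, and they are called the libraries labelled ski2-delta and labelled dbp1-delta throughout. Depth ran from 8.79 M to 17.7 M reads per library. The deposited scaling follows the 76 snoRNAs, and a scaling by protein-coding genes lowers both exchanged pairs against WT. The median log2 fold change of all tested features is 0.39 with the ski2-delta label and 0.33 with the dbp1-delta label as deposited, and -0.01 and 0.01 with protein-coding factors. Both scalings are therefore given where they part.

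Positions are those of RefSeq build R64. CUP1-1 (chrVIII:212535-212720) and CUP1-2 (chrVIII:214533-214718) are neighbours on the minus strand, in a repeat whose copies are identical over 1988 bases (212266 to 214253 and 214264 to 216251). The 186 bases of each reading frame, 269 bases beyond the stop codon and 1533 bases before the start codon are all inside it. Reads on one copy can thus not be told from reads on the other, and how the authors placed such reads is not given in the sources used here. Whether reads that match both copies were counted or dropped is not given either, so the CUP1 counts may be a part of all CUP1 reads. The number of CUP1 copies in each strain was not measured. CTR1 (chrXVI:786208-787428), CTR3 (chrXII:947253-947978), FRE1 (chrXII:568567-570627), FRE7 (chrXV:40748-42610), CUP2 (chrVII:191129-191806) and CCC2 (chrIV:1005675-1008689) lie on the plus strand, and MAC1 (chrXIII:317165-318418) on the minus strand. CRS5 (chrXV:389213-389422, plus strand) is annotated as a pseudogene in that build.

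Upstream stretches of CTR1, FRE1 and CUP1-2 are printed because these genes carry the 2 patterns described below and because each stretch holds the letters of its known activator. Capitals in the CTR1 and FRE1 stretches mark TTTGCTC, the core bound by Mac1, or its reverse complement. Capitals in the CUP1-2 stretch mark TTTGCTG, a core of Cup2 sites, or its reverse complement. Each stretch is given 5′ to 3′ on the gene's own strand, from RefSeq R64.
CTR1, chrXVI:785848-785947, plus strand: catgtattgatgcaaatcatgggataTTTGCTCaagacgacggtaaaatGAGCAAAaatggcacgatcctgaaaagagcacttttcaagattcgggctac
FRE1, chrXII:568257-568356, plus strand: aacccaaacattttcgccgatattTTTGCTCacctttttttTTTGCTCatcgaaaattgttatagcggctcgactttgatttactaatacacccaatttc
CUP1-2, chrVIII:214879-215008, minus strand: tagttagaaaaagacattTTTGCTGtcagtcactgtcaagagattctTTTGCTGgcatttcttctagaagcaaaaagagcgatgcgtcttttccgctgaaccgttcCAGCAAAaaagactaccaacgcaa

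Searched on both strands in the 500 bases before the start codon, TTTGCTC was found before CTR1 (334 and 311 bases upstream) and FRE1 (286, 269 and 96 bases upstream), and in 8.62% of all 6000 such windows. TTTGCTG was found before both CUP1 copies (272, 243 and 184 bases upstream) and CUP2 (297 bases upstream), and in 11% of all windows. TGCACCC, a core bound by the iron regulator Aft1, was found before CCC2 (290 and 242 bases upstream) and in 2.33% of windows. AGGGG, the stress element of Msn2 and Msn4, was found before CRS5 (221 and 63 bases upstream) and in 34.1% of windows. No match to these motifs was found before CTR3, FRE7 or MAC1. No member held matches to more than 1 of the motifs, and a match describes letters only.

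The members showed 2 patterns. Of the 4 Mac1 targets among the members, CTR1, FRE1 and FRE7 were lowest in WT and higher than both WT libraries in all 10 libraries of the deletion strains as deposited, and in 9 of 10 with protein-coding factors. The fourth, CTR3, was above both WT libraries in 3 of 10 and below both in 5 of 10. With spike-in factors, smallest for the first WT library (0.504, against 1.21 for the second), fewer deletion libraries lay above both for CTR1, FRE1 and FRE7. All 10 deletion libraries are set against the same 2 WT libraries, and the share of all features above both was not counted. Outside the members, the copper genes CTR2, CUP9, REE1 and IRC7 were also above both in 10 of 10 as deposited. With protein-coding factors they were so in 9, 6, 8 and 8 of 10. Reads of the metallothionein gene CUP1 were near 0 in both dhh1-delta libraries. Among the other 5 members, the calls against WT were not made with protein-coding factors. CUP2 in dhh1-delta was called with them and not as deposited. The calls of CTR1, FRE1 and FRE7 against WT under the ski2-delta and dbp1-delta labels were not made with those factors either. Those of CTR1 and FRE7 in dhh1-delta were.

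**Figure D1:**
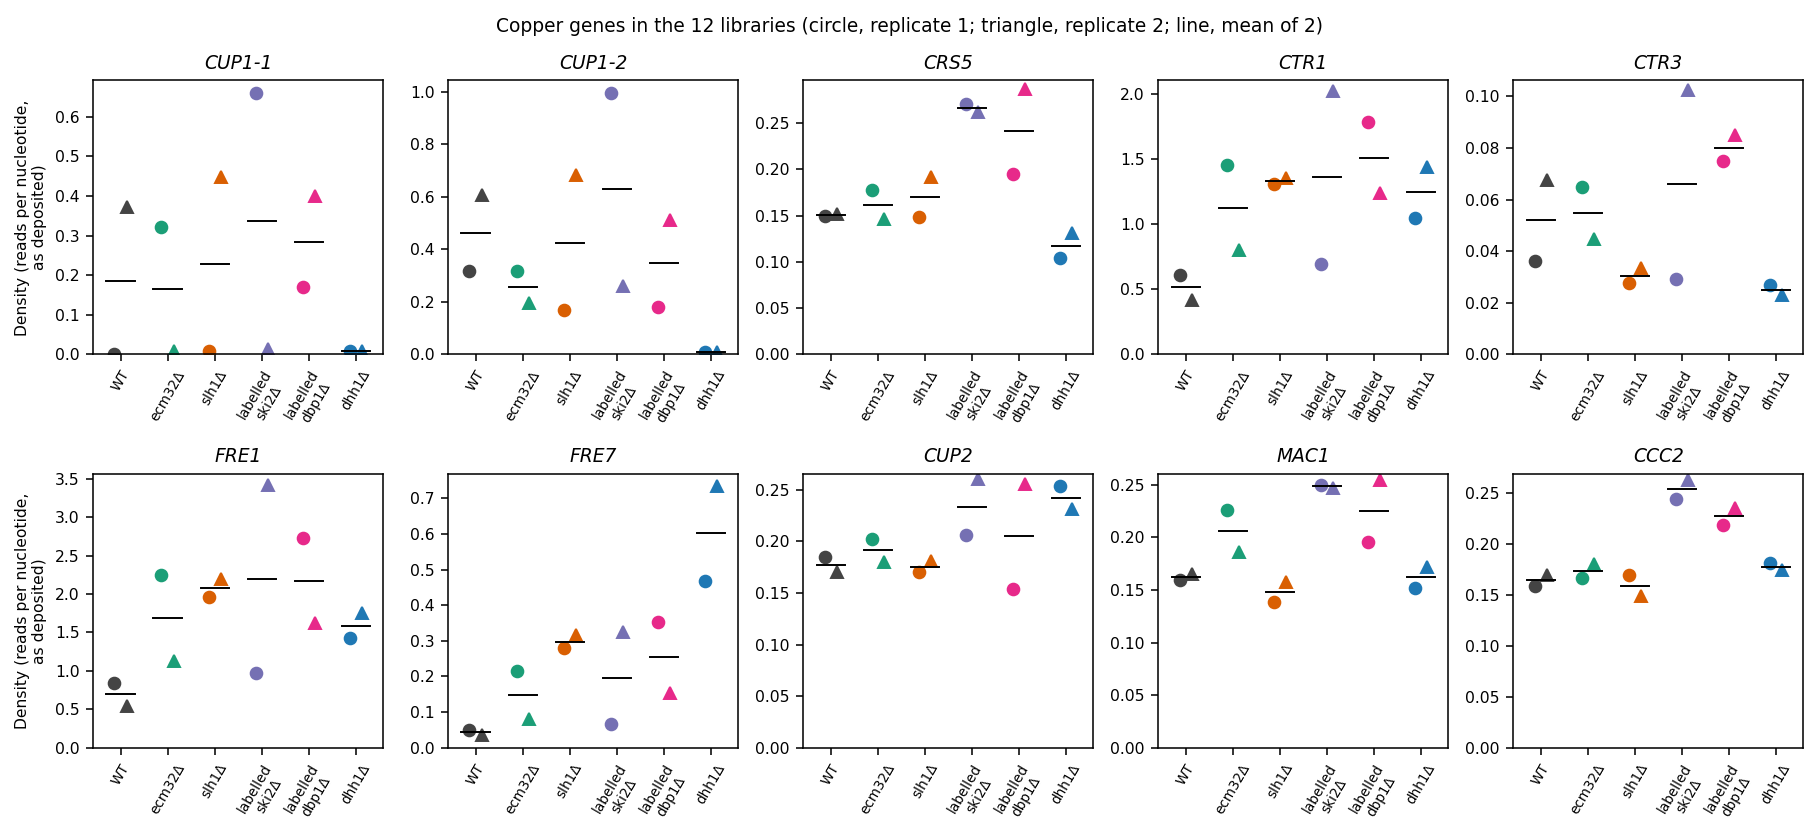
Density of each copper gene (reads per nucleotide, as deposited, linear axes from 0) in the 12 libraries, by strain, with circles for replicate 1, triangles for replicate 2 and a line at the mean of 2. In CTR1, FRE1 and FRE7 both WT libraries lie below all 10 others, and in CUP1-2 both dhh1-delta libraries lie near 0, at 0.00808 and 0.00822.

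The CUP1 copies encode the main copper metallothionein. Reads per library, recovered from the densities, were 47 and 200 on both copies together in WT, 121 and 47 in ecm32-delta, and 44 and 313 in slh1-delta. The libraries labelled ski2-delta had 173 and 40, those labelled dbp1-delta 62 and 121, and those of dhh1-delta 4 and 4. Both dhh1-delta libraries lie below all 10 others, whereas the other 5 strains overlap. How many of all features separate in the same way was not counted.

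As summed density, which sets the libraries on 1 scale, CUP1 stood at 0.317 and 0.979 in WT, at 0.637 and 0.204 in ecm32-delta and at 0.176 and 1.13 in slh1-delta. It stood at 1.65 and 0.275 in the libraries labelled ski2-delta, at 0.349 and 0.912 in those labelled dbp1-delta, and at 0.0162 and 0.0164 in dhh1-delta. The dhh1-delta replicates are alike, and in each of the other 5 strains 1 replicate has more than 2 times the value of the other.

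Over both replicates, 247 reads in WT stood against 8 in dhh1-delta, a ratio of 43.0 after scaling (95% counting interval 21.5 to 101). The interval covers counting error only and takes each read as separate. Recovered reads were even, rather than odd, in 59.4 to 62.0% of values per library, and whether mates of 1 fragment were counted singly, which would make the interval too narrow, was not tested. With the copies added up as 1 feature, the log2 fold change of dhh1-delta against WT was -4.72 (SE 0.94, adjusted p = 0.00247, limma), and it ran from -5.52 to -3.91 without 1 library at a time, past the threshold each time.

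Summed CUP1 in dhh1-delta was also lower than in each other deletion strain. The log2 differences were -4.10 against ecm32-delta (SE 0.94, adjusted p = 0.00516), -4.41 against slh1-delta (adjusted p = 0.00483), -5.00 against the libraries labelled ski2-delta (adjusted p = 0.000952) and -4.74 against those labelled dbp1-delta (adjusted p = 0.00152), all by limma. Without the first ecm32-delta library the first of these was -3.29 with an adjusted p of 0.0563, past the threshold no longer. The differences of the other 4 strains from WT did not pass: -0.62 for ecm32-delta, -0.31 for slh1-delta, 0.28 for the libraries labelled ski2-delta and 0.02 for those labelled dbp1-delta, each with an SE of 0.94. With protein-coding factors the last 2 were -0.15 and -0.33.

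How the reads were shared between the copies differed by library. CUP1-2 held 49.6 to 62.0% of them in 8 libraries. It held 95% to 100% in the other 4, which were the first WT, second ecm32-delta, first slh1-delta and second labelled ski2-delta libraries. Those 4 had 40 to 47 reads, fewer than any other library outside dhh1-delta. Fold changes of CUP1-1 alone rest on this split: its density was 0 in the first WT library and 0.372 in the second, and none of its 5 differences from WT passed the threshold (SE 2.2). CUP1-2 alone fell by 5.07 in dhh1-delta (SE 0.70, adjusted p = 0.000236).

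**Figure D2:**
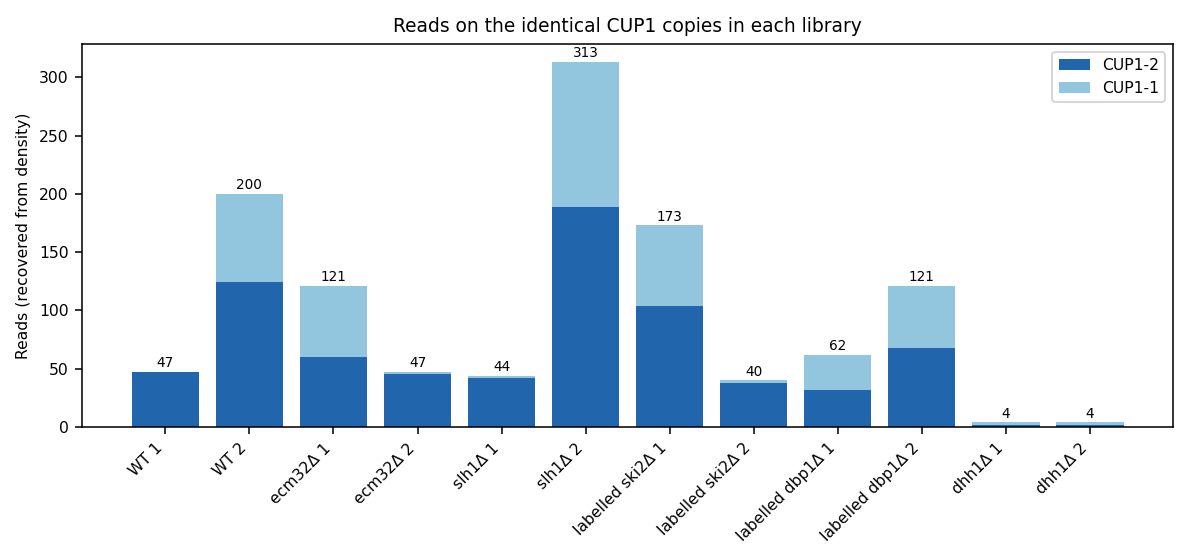
Reads recovered from the densities on CUP1-1 (light) and CUP1-2 (dark) in each of the 12 libraries, with the sum above each bar. Both dhh1-delta libraries have 4 reads, against 40 to 313 in the other 10, and in 4 libraries nearly all reads are listed under CUP1-2.

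Genes beside CUP1 did not share its difference in dhh1-delta. RSC30, a gene for a subunit of a chromatin remodeller, had a log2 fold change of -0.15 (SE 0.13, adjusted p = 0.382). CIC1, on the other side, had -0.30 (SE 0.14, adjusted p = 0.114). YHR054C, a gene between the copies that is a partial copy of RSC30 and lies wholly in the repeat, had -0.66 (SE 0.33, adjusted p = 0.127), with 14 and 23 reads in dhh1-delta against 14 and 38 in WT. Its reads cannot be told from those of RSC30 there.

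CRS5, the second metallothionein gene of yeast, had 25 to 60 reads per library. Its density was 0.149 and 0.152 in WT, 0.177 and 0.146 in ecm32-delta, 0.149 and 0.192 in slh1-delta, 0.271 and 0.262 under the ski2-delta label, 0.195 and 0.287 in those labelled dbp1-delta, and 0.104 and 0.131 in dhh1-delta. The dhh1-delta libraries were the lowest pair, without overlap with any other strain. The share of all features with such a separation was not counted, and 24.3% of all features were called lower in dhh1-delta than in WT. For CRS5 the log2 fold change of dhh1-delta against WT was -0.35 (SE 0.19, adjusted p = 0.167, limma), which did not pass. CRS5 rose by 0.80 in the libraries labelled ski2-delta (SE 0.19, adjusted p = 0.0128) and by 0.63 in those labelled dbp1-delta (adjusted p = 0.0453). With protein-coding factors these values were 0.38 (adjusted p = 0.338) and 0.30 (adjusted p = 0.451), which no longer passed.

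CTR1 encodes the high-affinity copper permease of the plasma membrane. Its density was 0.611 and 0.417 in WT. It was 1.45 and 0.798 in ecm32-delta, 1.30 and 1.35 in slh1-delta, 0.695 and 2.02 under the ski2-delta label, 1.78 and 1.24 in those labelled dbp1-delta, and 1.05 and 1.43 in dhh1-delta. All 10 libraries of the deletion strains lay above both WT libraries, while the 5 deletion strains overlapped among themselves. With protein-coding factors 9 of 10 did, the exception being the first library labelled ski2-delta, at 0.575 between the WT values of 0.704 and 0.429.

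FRE1 encodes the main reductase for copper and iron at the cell surface. Its density was 0.844 and 0.547 in WT, 2.25 and 1.13 in ecm32-delta and 1.96 and 2.19 in slh1-delta. It was 0.971 and 3.42 under the ski2-delta label, 2.72 and 1.62 in those labelled dbp1-delta, and 1.43 and 1.75 in dhh1-delta. The order of libraries was close to that of CTR1, with WT lowest and no overlap of WT with any deletion library as deposited.

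FRE7 encodes a further reductase of the family that Mac1 controls. Its density was 0.0505 and 0.0362 in WT, 0.216 and 0.0801 in ecm32-delta and 0.280 and 0.315 in slh1-delta. It was 0.0654 and 0.325 under the ski2-delta label, 0.354 and 0.155 in those labelled dbp1-delta, and 0.468 and 0.734 in dhh1-delta. Both dhh1-delta libraries lay above all 10 others, and both WT libraries below all 10 others. How many of all features do so was not counted. The dhh1-delta mean of FRE7 was 13.9 times the WT mean, against 3.41 to 6.86 times in the other strains.

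In FRE1 and FRE7, too, protein-coding factors left 9 of 10 deletion libraries above both WT libraries. The exception was again the first one labelled ski2-delta, at 0.803 for FRE1 and 0.0540 for FRE7.

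By strain mean, the order of CTR1 from the top was labelled dbp1-delta, labelled ski2-delta, slh1-delta, dhh1-delta, ecm32-delta and WT. Only the step from ecm32-delta to WT separated neighbours whose libraries did not overlap. For FRE1 the step above WT, from dhh1-delta, was likewise the only one. FRE7 had dhh1-delta at the top, apart from slh1-delta below it, and WT at the bottom, apart from ecm32-delta.

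CTR3, the second high-affinity permease, has a transposon in its promoter in many laboratory strains and was the lowest of the 10 genes per nucleotide by its median over the libraries, 0.0404. It had 12 to 58 reads per library. Its density was 0.0363 and 0.0677 in WT, 0.0647 and 0.0445 in ecm32-delta, 0.0277 and 0.0333 in slh1-delta, 0.0294 and 0.102 under the ski2-delta label, 0.0751 and 0.0849 in those labelled dbp1-delta, and 0.0269 and 0.0232 in dhh1-delta. It did not share the low WT level of CTR1, and none of its 5 differences from WT passed. The largest was -0.87 in dhh1-delta (SE 0.43, adjusted p = 0.126).

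CTR1, FRE1 and FRE7 also moved together between replicates. In all 6 strains the replicate with more CTR1 had more FRE1 and more FRE7, on both scalings. Over the 12 libraries, log2 CTR1 and FRE1 had a Pearson r of 0.988 and a Spearman rho of 0.979 (both with adjusted p = 0.00045 over 45 pairs of members, from the smallest p that 100000 permutations give). Without the 2 libraries farthest from the CTR1 median r was 0.972. After each strain's mean was taken off, r was 0.992. The 2 libraries of a strain then mirror each other, so this r and those of its kind below rest on 6 replicate differences. The largest of these differences was under the ski2-delta label, at log2 values of 1.53 for CTR1 and 1.81 for FRE1.

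CTR1 and FRE7 had an r of 0.854 (permutation test, adjusted p = 0.0101; rho 0.748, adjusted p = 0.0796), and 0.982 with the strain means taken off. For FRE1 and FRE7 the values were 0.798 (adjusted p = 0.0186; rho 0.685, adjusted p = 0.0975) and 0.984. Without the 2 farthest libraries r was 0.704 and 0.745. The libraries of a strain are not independent of each other, so these p-values are too small. The pair MAC1 and CCC2 (r = 0.794, adjusted p = 0.0230) and the pair CRS5 and MAC1 (r = 0.823, adjusted p = 0.0186) passed as well, but with protein-coding factors r was -0.29 and 0.40.

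Replicates of CTR1, FRE1 and FRE7, like those of CUP1-1, CUP1-2 and CTR3, differed more than those of nearly all other genes. The replicate SD on the log2 scale was 0.57 for CTR1, 0.67 for FRE1 and 0.86 for FRE7. These were larger than in 98.9%, 99.3% and 99.7% of 5650 protein-coding genes, whose median was 0.14. For CUP1-1, CUP1-2 and CTR3 the SD was 3.08, 0.96 and 0.56, larger than in 99.98%, 99.8% and 98.8%. In CTR1, FRE1 and FRE7 the libraries labelled ski2-delta lay furthest apart, the second having 2.91, 3.52 and 4.97 times as much as the first. The same pair had the opposite order for CUP1, 173 reads in the first and 40 in the second. Over all strains, however, CTR1 and summed CUP1 moved in the same direction between replicates in 3 of 6 strains as deposited. With protein-coding factors they did so in 2 of 6. In dhh1-delta the direction of summed CUP1 rests on a log2 difference of 0.02 as deposited. CTR1 and CUP1-2 had no correlation past the threshold (r = -0.29, permutation test, adjusted p = 0.665). That r was -0.43 with protein-coding factors, and -0.54 with the strain means taken off.

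**Figure D3:**
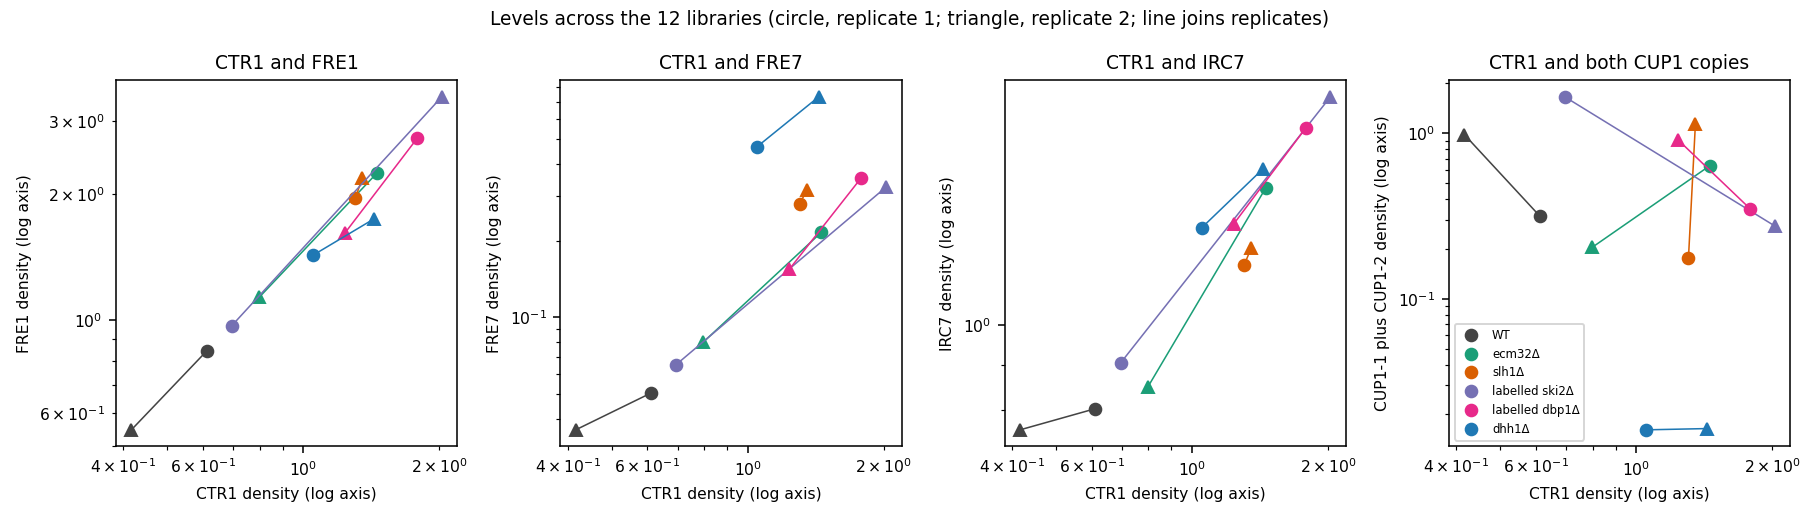
Densities (log axes) of FRE1, FRE7, IRC7 and summed CUP1 against CTR1 in the 12 libraries, with circles for replicate 1, triangles for replicate 2 and lines joining the replicates of a strain. FRE1 follows CTR1 along 1 line (r = 0.988), FRE7 in dhh1-delta lies above the trend of the other strains, and CUP1 shows no shared trend.

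IRC7 and REE1, outside the 10, had the most similar patterns. Among 5641 other protein-coding genes, IRC7, a gene of cysteine metabolism, was the nearest to CTR1 (r = 0.953 over the 12 libraries) and to FRE1 (r = 0.923), and REE1, a gene linked to enolase regulation, was the nearest to FRE7 (r = 0.920). Both are known targets of Mac1 and stood on the list of other copper genes for that reason. IRC7 density was 0.802 and 0.759 in WT and 0.849 to 1.82 in the deletion libraries, above WT in 10 of 10 as deposited and 8 of 10 with protein-coding factors. REE1 density was 0.726 and 0.731 in WT and 2.73 and 3.65 in dhh1-delta. SNF7 (r = 0.841) and ARL3 (r = 0.833) came next for CTR1 and, in the same order, for FRE1 (0.803 and 0.793), and SRN2 (0.885) and IRC7 (0.865) for FRE7.

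For the other members that varied between strains the nearest genes were different. CUP1-2 was most like ANB1 (r = 0.953), RGS2 (0.946) and ADH5 (0.938). CRS5 was most like YAP3 (0.972), VTA1 (0.960) and OSH2 (0.958), and CTR3 most like PET18 (0.956), DIB1 (0.948) and PEX4 (0.945). CUP1-1 was most like VPS25 (0.812), YJL136W-A (0.799) and ZIP2 (0.798). These genes were ranked on the deposited scale, and several values depend on it. With protein-coding factors r was 0.475 for CUP1-1 with VPS25, below YJL136W-A (0.785) and ZIP2 (0.693), and 0.476 for CTR3 with PET18, below DIB1 (0.824) and PEX4 (0.833). CRS5 had 0.783 with YAP3, 0.869 with VTA1 and 0.855 with OSH2. SNF7 came below ARL3 for both CTR1 (0.713 and 0.847) and FRE1 (0.657 and 0.788), and IRC7 (0.956) above REE1 (0.918) for FRE7. The 3 genes named for CUP1-2 were still at 0.922 to 0.945, and IRC7 at 0.948 with CTR1 and 0.911 with FRE1. All are descriptions over 12 libraries that share depth and scaling.

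CUP2, the activator of the metallothionein genes, had 93 to 271 reads per library. Its density was 0.185 and 0.171 in WT and 0.254 and 0.231 in dhh1-delta. It ran from 0.154 to 0.260 in the other 8 libraries. The dhh1-delta libraries lay above both WT libraries, with a log2 fold change of 0.44 (SE 0.20, adjusted p = 0.102). With protein-coding factors the value was 0.47 (SE 0.16, adjusted p = 0.0345), which passed.

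MAC1 encodes the activator of the uptake genes. Its density was 0.159 and 0.166 in WT, 0.226 and 0.187 in ecm32-delta, 0.138 and 0.157 in slh1-delta and 0.152 and 0.172 in dhh1-delta. The log2 fold change against WT was -0.13 in slh1-delta (SE 0.15, adjusted p = 0.837) and -0.01 in dhh1-delta (SE 0.15, adjusted p = 0.981). It was 0.25 and 0.247 in the libraries labelled ski2-delta, a rise of 0.60 (SE 0.15, adjusted p = 0.0141), and 0.196 and 0.255 in those labelled dbp1-delta (0.45, adjusted p = 0.0562). With protein-coding factors the rise of 0.60 was 0.18 (adjusted p = 0.524).

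CCC2 encodes the pump that loads copper into the secretory pathway for the iron oxidase Fet3. Its density was 0.159 and 0.170 in WT, 0.167 and 0.180 in ecm32-delta, 0.169 and 0.149 in slh1-delta and 0.182 and 0.174 in dhh1-delta. It was 0.244 and 0.263 under the ski2-delta label and 0.219 and 0.235 in those labelled dbp1-delta, both apart from all other strains as deposited. The share of all features so separated was not counted. With protein-coding factors these libraries had 0.202 and 0.207, and 0.203 and 0.187, which overlap the 0.204 and 0.192 of dhh1-delta. The rises of 0.61 (SE 0.12, adjusted p = 0.0104) and 0.45 (adjusted p = 0.0339) became 0.19 (adjusted p = 0.520) and 0.12 (adjusted p = 0.722) with protein-coding factors. The replicate SD of CCC2 (0.08) was smaller than in most protein-coding genes.

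The tests across all 9497 features put these values in context, and the 5 comparisons with WT share the WT libraries. Calls are adjusted p under 0.05 in limma. In ecm32-delta 0 of 10 members passed, against 0.0737% of all features. CTR1 (1.09, SE 0.41), FRE1 (1.23, SE 0.48) and FRE7 (1.52, SE 0.62) had an unadjusted p under 0.05 there, and voom called 0. In slh1-delta 0 of 10 passed, against 0.0105% of all features, again with unadjusted p under 0.05 for CTR1 (1.39, SE 0.41), FRE1 (1.60, SE 0.48) and FRE7 (2.66, SE 0.62, adjusted p = 0.349) and 0 calls by voom. With only slh1-delta and WT in the fit, CTR1 (adjusted p = 0.0142), FRE1 (adjusted p = 0.0102) and FRE7 (adjusted p = 0.000126) passed in limma. There 8 of 9361 features were called higher and 4 lower. FRE7 also passed with spike-in factors (2.32, adjusted p = 4.23e-06), where 11 of 9487 features were called higher and 45 lower. With protein-coding factors 0 passed in ecm32-delta, against 0.169% of all features, and the only member with an unadjusted p under 0.05 was MAC1 (0.23, SE 0.10), CTR1, FRE1 and FRE7 having 0.0519, 0.0571 and 0.0592 (unadjusted, limma). In slh1-delta 0 passed with those factors, against 0.0422%, with unadjusted p under 0.05 for CTR1, FRE1 and FRE7.

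In the libraries labelled ski2-delta 5 of 10 members rose: CTR1 (1.23, SE 0.41, adjusted p = 0.0359), FRE1 (1.42, SE 0.48, adjusted p = 0.0365), CRS5, MAC1 and CCC2. The background there was 40% of all features called, so this count is near it. FRE7 (1.67, SE 0.62) had an adjusted p of 0.0506. With protein-coding factors 0 passed (unadjusted 1), against 0.834% of all features. Leaving out 1 library changed which members passed, and also changed the number of all features that passed. In these fits the median of all features ran from 0.30 to 0.46. CRS5 ran from 0.78 to 0.83, MAC1 from 0.57 to 0.63 and CCC2 from 0.56 to 0.66. CTR1 itself was 1.99 without the first labelled ski2-delta library and 0.46 without the second, and FRE1 2.32 and 0.51.

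In the libraries labelled dbp1-delta 5 of 10 rose: CTR1 (1.55, SE 0.41, adjusted p = 0.0340), FRE1 (1.62, SE 0.48, adjusted p = 0.0426), FRE7 (2.32, SE 0.62, adjusted p = 0.0341), CRS5 and CCC2. The background was 17.6%. With protein-coding factors 0 passed (unadjusted 3), against 0.718%. Here, too, leaving out 1 library changed which members passed and the number of all features that passed. The median of all features ran from 0.23 to 0.44 in these 4 fits. CTR1, FRE1 and FRE7 passed in 0 of these 4 fits, at 1.27 to 1.82, 1.25 to 1.99 and 1.74 to 2.91. The 4 members called without the first labelled dbp1-delta library were CRS5, CCC2, MAC1 and CUP2, of which MAC1 and CUP2 had not passed with all libraries.

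In dhh1-delta 3 of 10 passed against a background of 37.9%. FRE7 rose by 3.63 (SE 0.62, adjusted p = 0.000994) and CTR1 by 1.27 (SE 0.41, adjusted p = 0.0306), and CUP1-2 fell. FRE1 (1.21, SE 0.48) had an adjusted p of 0.0660. With protein-coding factors 4 passed, CUP2 being added, against 47.2% of all features. FRE7 and CUP1-2 passed in each of the 4 fits without 1 library, whereas CTR1 passed only without the first WT library, and had 1.00 without the second WT library, 1.5 without the first dhh1-delta library and 1.05 without the second.

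**Figure D4:**
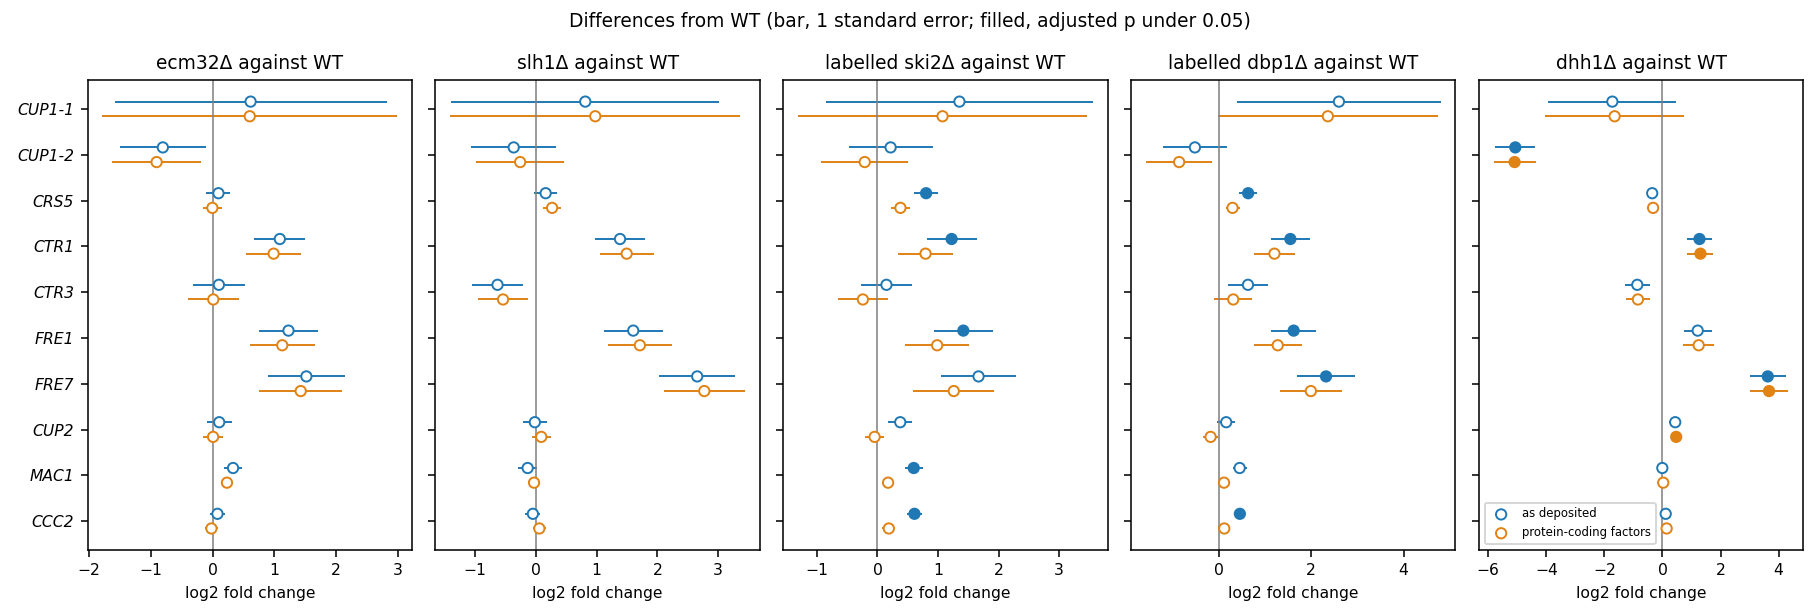
Log2 fold change of each member in 5 comparisons with WT (1 panel each, bars of 1 standard error), as deposited in blue and with protein-coding factors in orange, filled where the adjusted p is under 0.05. CTR1, FRE1 and FRE7 lie above 0 in all 5 panels on both scalings, and filled points remain with protein-coding factors only in dhh1-delta.

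Set against the other deletion strains, dhh1-delta differed in CUP1-2 each time and in FRE7 part of the time, while CTR1 and FRE1 did not pass with all libraries in the fit, and their signs depended on the scaling and on single libraries. FRE1 passed against the labelled ski2-delta libraries without the first of them (-1.11, adjusted p = 0.0300), and against slh1-delta with only those groups in the fit (-0.39, adjusted p = 0.0368). Against ecm32-delta 2 members passed (background 40%), CUP1-2 and FRE7 (2.11, SE 0.62, adjusted p = 0.0186). Without the second ecm32-delta or the second dhh1-delta library 1 did. Against slh1-delta 1 passed (background 30.3%), and FRE7 was 0.97 higher (SE 0.62, adjusted p = 0.258). Against the libraries labelled ski2-delta 5 passed (background 58.9%): CUP1-2, CRS5 (-1.16, adjusted p = 0.00045), MAC1 (-0.60), CCC2 (-0.50) and, higher, FRE7 (1.96, SE 0.62, adjusted p = 0.0183). Against those labelled dbp1-delta 5 passed (background 56.6%), all lower: CUP1-2, CRS5 (-0.99), CTR3 (-1.5, SE 0.43, adjusted p = 0.0110), MAC1 (-0.46) and CCC2 (-0.34). FRE7 had an adjusted p of 0.0917 against those labelled dbp1-delta. In that comparison 3 members passed without the second labelled dbp1-delta library (CUP1-2, CRS5 and, higher, CUP2), without the first dhh1-delta library (CUP1-2, CRS5 and CTR3) and without the second dhh1-delta library (CUP1-2, CRS5 and MAC1). With protein-coding factors MAC1 and CCC2 passed in neither of these comparisons, and CCC2 had the opposite sign (0.03) against the labelled dbp1-delta libraries. With those factors CUP2 was called higher against ecm32-delta (0.46, adjusted p = 0.0374), labelled ski2-delta (0.52, adjusted p = 0.0240) and labelled dbp1-delta (0.65, adjusted p = 0.00801). There 18.8%, 18.9% and 18.3% of all features rose. CRS5 was called lower against slh1-delta (-0.59, adjusted p = 0.0112), where 26.7% of all features fell. With spike-in factors CCC2 changed sign (0.03) against the labelled ski2-delta libraries. The FRE7 call against ecm32-delta was lost without the second ecm32-delta library (1.42) or the second dhh1-delta library (1.79), and the call against the labelled ski2-delta libraries without the first of them (0.84) or the second dhh1-delta library (1.63). Without the second labelled ski2-delta library that value was 3.07.

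The other copper genes were read from a list of 20 (transporters, chaperones of copper delivery and Mac1-type genes). That list was chosen with earlier results of these data known, so its counts beside those of all features are a description only. In dhh1-delta 10 rose and 1 fell, where 13.7% of all features rose and 24.3% fell, and the list's median log2 fold change was 0.45 against -0.20 for all features. REE1 (2.11, SE 0.38, adjusted p = 0.00143), COX17 (1.90, SE 0.16), which carries copper to cytochrome c oxidase, and PIC2 (1.65, SE 0.21), a mitochondrial carrier for copper and phosphate, changed most. CMC1 (0.98) and SCO1 (0.98), both needed for assembly of that oxidase, and BSD2 (0.95), which helps sort metal transporters to the vacuole, followed. The chaperone gene ATX1, which hands copper to Ccc2, was the one that fell, by 0.75 (SE 0.15, adjusted p = 0.00250), and is named after its value was seen.

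In ecm32-delta and slh1-delta 0 of the 20 passed in limma (1 and 3 with unadjusted p under 0.05, or 1 and 9 with protein-coding factors, which also gave 0 calls). In the libraries labelled ski2-delta 9 rose, where 39.3% of all features did, led by COX17 (0.68, SE 0.16), PIC2 (0.61, SE 0.21) and COX23 (0.59, SE 0.12), a further assembly factor. In those labelled dbp1-delta 6 rose, where 17.2% did, led by IRC7 (0.92, SE 0.29), PIC2 (0.85, SE 0.21) and CUP9 (0.55, SE 0.13). With protein-coding factors 0 of the 20 passed under either of these labels (0 and 1 with unadjusted p under 0.05), while 10 rose and 2 fell in dhh1-delta, where 18.3% of all features rose and 28.9% fell at that scaling.

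The 6 other metalloreductase genes did not follow FRE1 and FRE7. In dhh1-delta FRE4, for a siderophore reductase, fell by 1.73 (SE 0.23, adjusted p = 0.000177), from 40 and 80 reads in WT to 14 in each dhh1-delta library. FRE2 (-0.08), FRE3 (-0.01), FRE5 (-0.44), FRE6 (-0.05) and FRE8 (-0.11) did not pass. None of the 6 passed in ecm32-delta or slh1-delta, with 0 at an unadjusted p under 0.05. FRE6 (0.49) and FRE8 (0.47) rose in the libraries labelled ski2-delta, and FRE3 (0.50), FRE6 (0.35) and FRE8 (0.49) in those labelled dbp1-delta, where the medians of all features were 0.39 and 0.33 and 39.3% and 17.2% of all features rose. With protein-coding factors 0 of the 6 passed under either label (0 and 1 with unadjusted p under 0.05).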

How the data were processed

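The authors deposited a table of signal values, normalized densities per feature, for 12 libraries. Build R64, featureCounts 2.0.0, HISAT2 2.2.0, DESeq2 and Trim Galore are listed in the submitters' processing notes, without roles, and strand and multi-mapping settings are not given in the sources used here. The deposited densities were whole reads divided by feature length and a library size factor: whole reads (tolerance 0.01 read) came back for 100% of 124137 values, and the factors match snoRNA median ratios within 0.633%. Log2(density + 0.00508), the pseudocount being the 10th percentile of values above 0, entered limma-trend (version 3.58.1, in R 4.3.3) for 9497 features with a mean above it, spike-ins left out, in 1 model of all 12 libraries. Fold changes are on that scale, which understates low genes. P-values were adjusted by Benjamini-Hochberg within each comparison. The code was tested on simulated data. The smallest permutation p of 2 libraries against 2 being 0.333, significance here depends on the model's pooled spread. Members, gene lists, motifs and tests were chosen with earlier results of these data known. All members were named, with all genes of short lists and up to 6 called genes of longer ones. Adding up the identical CUP1 copies as 1 feature was chosen after seeing the data. Alternatives covered scaling, pseudocount, filter, voom, samples fitted, a replicate block and each library left out.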

Additional observations from a re-analysis of the deposited data

How the results depend on the processing

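Counts of members called under other settings lay within 1.5 times the reported count in 92 of 126 cases. The calls over all features are given in brackets, higher and then lower. With protein-coding factors, over 9471 features, the count was 0 for the libraries labelled ski2-delta (27 and 52) and 0 for those labelled dbp1-delta (28 and 40). It was 2 for dhh1-delta against slh1-delta (1553 and 2527). With spike-in factors, over 9487 features, it was 1 for slh1-delta (11 and 45) and 0 for labelled ski2-delta (14 and 99) against WT. Against WT it was also 2 for labelled dbp1-delta (30 and 36) and 6 for dhh1-delta (289 and 1295). For dhh1-delta it was 2 against slh1-delta (406 and 242) and 3 against labelled ski2-delta (400 and 327). Spike-in factors with the first WT library left out, a setting chosen after seeing the data, leave 1 WT library. Members called against WT changed there too. The medians of all features were 0.18, 0.32 and 0.094 for labelled ski2-delta, labelled dbp1-delta and dhh1-delta against WT. For dhh1-delta against slh1-delta the count was 2 (1751 and 904 of 9482). Quantile normalization, over 9497 features, gave 0 for labelled ski2-delta (32 and 48) and 0 for labelled dbp1-delta (32 and 40). It gave 2 for dhh1-delta against slh1-delta (1462 and 1765) and 3 against labelled dbp1-delta (1641 and 1975). No filter gave 3 for labelled dbp1-delta (1422 and 43 of 10677). With only the compared groups in the fit the counts against WT were 3 for slh1-delta (8 and 4 of 9361) and 0 for labelled ski2-delta (54 and 12 of 9554). For dhh1-delta they were 6 against WT (1237 and 2091 of 9129), 5 against ecm32-delta (1335 and 3111 of 9127) and 5 against slh1-delta (1816 and 1821 of 9037). Without 1 library the members called changed for labelled ski2-delta, labelled dbp1-delta and dhh1-delta against WT. They also changed for dhh1-delta against ecm32-delta, labelled ski2-delta and labelled dbp1-delta. The number of all features called changed as well. A lone library left in a strain was assumed to vary like the others. The cause of these shifts was not tested.

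Of 1119 fold changes of single genes or of summed CUP1 under other settings, 103 changed sign, 140 lost and 28 gained a call, and 848 kept their direction and side of the threshold. Sign changes of called values came with scaling: CCC2 (-0.14) and MAC1 (-0.15) under the ski2-delta label and CCC2 (-0.081) under the dbp1-delta label with spike-in factors, COX11 (-0.044) and CIC1 (-0.0061) under the ski2-delta label with protein-coding factors, and CCC2 in dhh1-delta against the ski2-delta label with spike-in factors (0.030, or 0.032 without the first WT library) and against the dbp1-delta label with protein-coding factors (0.027) or quantile normalization (0.051).

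The other sign changes were of values that missed the threshold as reported. Against WT, with protein-coding factors, they were CRS5 (-0.0049) and CCC2 (-0.021) in ecm32-delta, CUP2 (0.090) and CCC2 (0.058) in slh1-delta, CUP1-2 (-0.21), CTR3 (-0.24), CUP2 (-0.047) and summed CUP1 (-0.15) under the ski2-delta label, CUP2 (-0.18) and summed CUP1 (-0.33) under the dbp1-delta label, and MAC1 (0.027) in dhh1-delta. With spike-in factors they were CRS5 (-0.16), CTR3 (-0.13), CUP2 (-0.15) and CCC2 (-0.17) in ecm32-delta, CRS5 (-0.18) in slh1-delta, CUP1-2 (-0.54), CTR3 (-0.54) and CUP2 (-0.37) under the ski2-delta label, CUP2 (-0.38) and MAC1 (-0.086) under the dbp1-delta label, and CCC2 (-0.11) in dhh1-delta. Quantile normalization gave CUP2 (0.098) and CCC2 (0.055) in slh1-delta, CUP1-2 (-0.20), CTR3 (-0.15) and CUP2 (-0.056) under the ski2-delta label, CUP2 (-0.21) under the dbp1-delta label and MAC1 (0.031) in dhh1-delta. Spike-in factors without the first WT library gave CUP1-1 at -2.14 in ecm32-delta, -2.03 in slh1-delta, -1.83 under the ski2-delta label and -0.42 under the dbp1-delta label, CUP2 (0.30), MAC1 (0.10) and CCC2 (0.17) in slh1-delta, CUP1-2 (-0.38) and CTR3 (-0.38) under the ski2-delta label, and CRS5 (0.029) and MAC1 (0.36) in dhh1-delta.

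CTR1 and FRE1 in dhh1-delta also changed sign against other deletion strains. With protein-coding factors FRE1 was 0.12 against ecm32-delta and 0.26 against the ski2-delta label, and CTR1 0.10 against the dbp1-delta label. With spike-in factors FRE1 was 0.019 and 0.34 in the same order, and CTR1 0.015 against slh1-delta and 0.048 against the dbp1-delta label. Leaving out the first WT library as well, these 4 values were 0.021, 0.34, 0.026 and 0.050. Quantile normalization gave FRE1 at 0.021 against the ski2-delta label. Without 1 library, CTR1 ran from -0.24 to 0.62 against ecm32-delta, -0.34 to 0.11 against slh1-delta and -0.72 to 0.82 against the ski2-delta label, and FRE1 from -0.51 to 0.48 against ecm32-delta and -1.11 to 0.70 against the ski2-delta label.

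Without 1 library, CUP1-1 ran from -2.49 to 3.72 in ecm32-delta, -2.29 to 3.92 in slh1-delta, -1.75 to 4.46 under the ski2-delta label, -0.51 to 5.71 under the dbp1-delta label and -4.83 to 1.38 in dhh1-delta. CUP1-2 ran from -1.36 to 0.63 in slh1-delta, -0.74 to 1.17 under the ski2-delta label and -1.26 to 0.22 under the dbp1-delta label. Summed CUP1 ran from -1.43 to 0.19 in ecm32-delta, -1.64 to 1.01 in slh1-delta, -1.01 to 1.56 under the ski2-delta label and -0.79 to 0.82 under the dbp1-delta label. CRS5 ran from -0.040 to 0.23 in ecm32-delta and -0.016 to 0.34 in slh1-delta, and CTR3 from -0.31 to 0.51 in ecm32-delta and -0.67 to 0.97 under the ski2-delta label. CUP2 ran from -0.072 to 0.040 in slh1-delta and -0.20 to 0.51 under the dbp1-delta label, CCC2 from -0.14 to 0.043 in slh1-delta and MAC1 from -0.089 to 0.078 in dhh1-delta. CUP1-2 and FRE7 in dhh1-delta against WT passed under each alternative run, from -5.66 to -3.06 and from 2.77 to 4.22.

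Replicate numbers do not pair the samples: over 15 pairs of strains the replicate differences correlated from -0.08 to 0.07. With a replicate block 5 members passed in labelled ski2-delta and 6 in dhh1-delta against it, and counts elsewhere were those reported. Low counts limit CUP1, CRS5 and CTR3.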

Other observations

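The 3 regulators of the metallothionein genes other than Cup2 are the heat shock factor HSF1 and the stress activators MSN2 and MSN4. In dhh1-delta MSN4 rose by 0.87 (SE 0.15, adjusted p = 0.00127, limma), while HSF1 (-0.27, SE 0.13, adjusted p = 0.105) and MSN2 (-0.11, SE 0.15, adjusted p = 0.564) did not pass. All 3 rose in the libraries labelled ski2-delta, by 0.59 to 0.63, and in those labelled dbp1-delta, by 0.56 to 0.59, where the median of all features was 0.39 and 0.33 above WT and 39.3% and 17.2% of all features rose. With protein-coding factors 0 of 3 passed in either (0 and 1 with unadjusted p under 0.05).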
